A study of Mus musculus with 6 samples.

Results

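A set of 9 myeloid C-type lectin receptors was followed as a group, chosen by name as the rows of the deposited table whose symbol was Clec4e, Clec4d, Clec4n, Clec5a, Clec7a, Clec10a, Clec12a, Clec2d or Mrc1. All 9 were found once each among 22063 genes. RNA sequencing of 6 libraries of mouse macrophages gave the data, with 3 libraries each for CAR-Ms and CAR-Trem2-Ms. All 6 samples were cultured over 7 days in medium holding 20 ng/mL of M-CSF, a growth factor of macrophages, and received a lentivirus that makes CAR-Ms, macrophages with a chimeric antigen receptor. CAR-Ms carry the genotype label WT. CAR-Trem2-Ms carry the genotype label TERM2+, and their own labels add 24 h of induction by VD3 (1 µM) followed by flow sorting. The treatment protocol that all samples share also names VD3, so the labels do not settle whether CAR-Ms received it. Genotype label, sorting and possibly VD3 therefore differ together between the groups and cannot be told apart. The labels do not give the target of the receptor, the promoter that drives it or whether the replicates are separate cultures or animals, so each p-value measures the spread between these libraries, which may be technical. The labels call both tissue and source skin.

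C-type lectin receptors are surface proteins that recognise sugars, lipids and products of dead cells, and macrophages use them to sense fungi, mycobacteria and injury. The activating members signal through an ITAM, a tyrosine motif that recruits the kinase Syk, and reach NF-kB through a complex of Card9, Bcl10 and Malt1. Some carry no such motif and borrow it from an adaptor, the Fc receptor gamma chain (Fcer1g) or DAP12 (Tyrobp). Clec12a is inhibitory and recruits phosphatases. Mrc1, the mannose receptor, is mainly an uptake receptor and a marker of alternatively activated macrophages.

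Of the 9 receptors, 5 had enough reads to be tested, and these 5 were higher in CAR-Trem2-Ms: Clec10a, Clec4e, Clec4d, Clec12a and Clec5a, with folds from 6.14 down to 1.73. The other 4, Mrc1, Clec7a, Clec4n and Clec2d, were near the limit of detection in both groups, with at most 11 reads in any library. The test was edgeR's quasi-likelihood test on read counts, and a gene was called at a Benjamini-Hochberg adjusted p under 0.05. By that rule 81.1% of the 11402 tested genes were called, 40.9% as higher and 40.1% as lower, so a call by itself says little about these receptors. A rise of at least 2-fold was called for 4 of the 5 receptors and for 18.7% of tested genes. Under upper quartile factors that count was 5, under RLE factors or DESeq2 it was 3, and it was 2 for both library-total scaling and log2(TPM + 1). With an offset for GC content and transcript length it was 4, with Clec5a in and Clec4d out. The share of all genes at 2-fold is given for TMM factors only, and the median of all genes moved with the scaling, so these counts have no background beside them. Clec12a, at 1.01 on the log2 scale, was under 2-fold without any of 4 libraries, CAR-Ms replicates 1 and 2 and CAR-Trem2-Ms replicates 1 and 3. The median log2 fold change was 1.05 over the 5 and 0.03 over all tested genes. The receptors were chosen with earlier results of these data known, so these contrasts with all genes are descriptions only. A tested gene had to have reads in at least 1 group, so the 5 do not stand for all 9. In bulk RNA, more cells that carry a transcript and more transcript per cell cannot be told apart.

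The CAR-Ms libraries held 14204468 to 15913100 counted reads and the CAR-Trem2-Ms libraries 9804959 to 12558021. The level of Trem2, in CPM (reads relative to library size, adjusted with TMM factors), was 76.6 ± 2.32 over the CAR-Ms libraries and 191.2 ± 7.56 over those of CAR-Trem2-Ms (mean ± SD, n = 3), the direction of the genotype label. Counts do not tell its own transcript from an introduced one. Of 11 macrophage markers, 9 were tested, 7 of them higher and 2 lower, and their summed level was 3676 to 3709 CPM in CAR-Ms, against 4531 to 4614 CPM in CAR-Trem2-Ms. Mertk, an uptake receptor of tissue macrophages, had at most 3 reads in a library. Mitochondrially encoded genes took 4.60 to 4.70% of counts in CAR-Ms, against 13.38 to 13.80% in CAR-Trem2-Ms, and the part of RNA quality in the results was not tested.

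Of the receptor genes, 7 lie on mouse chromosome 6, Clec10a lies on chromosome 11 and Mrc1 on chromosome 2 (GRCm38, GENCODE annotation). No exon of any of the 9 overlaps an exon of another annotated gene. Promoter windows were taken from RefSeq (GRCm38.p6), where 7 of the 9 symbols matched. The windows of 3 receptors that rose, Clec4e, Clec4d and Clec5a, are shown beside that of Mrc1, which gave almost no reads. Those of Clec7a and Clec2d, which also gave few reads, are not shown. Each runs 5′ to 3′ on the strand of the gene and ends at the RefSeq start, or up to 22 bases before it where GENCODE places an exon. Capitals mark matches, on either strand, to TTGCNNAA (C/EBP family), GAGGAAG (PU.1) or TGANTCA (AP-1).
Clec4e, chr6:123289872-123290121, minus strand: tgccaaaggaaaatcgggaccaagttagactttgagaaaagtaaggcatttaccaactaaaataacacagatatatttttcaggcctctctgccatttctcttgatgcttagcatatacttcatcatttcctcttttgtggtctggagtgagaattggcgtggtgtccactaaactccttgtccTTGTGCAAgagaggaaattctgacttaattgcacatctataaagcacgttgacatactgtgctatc
Clec4d, chr6:123261857-123262106, plus strand: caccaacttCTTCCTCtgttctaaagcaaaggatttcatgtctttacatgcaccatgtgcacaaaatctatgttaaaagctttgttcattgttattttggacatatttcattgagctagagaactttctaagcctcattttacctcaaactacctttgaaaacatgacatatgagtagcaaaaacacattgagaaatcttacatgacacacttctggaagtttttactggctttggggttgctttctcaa
Clec5a, chr6:40585822-40586055, minus strand: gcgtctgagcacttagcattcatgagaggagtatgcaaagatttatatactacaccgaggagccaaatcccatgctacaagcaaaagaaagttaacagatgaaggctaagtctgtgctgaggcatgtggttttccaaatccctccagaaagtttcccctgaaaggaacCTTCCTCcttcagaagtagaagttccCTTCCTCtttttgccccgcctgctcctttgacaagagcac
Mrc1, chr2:14229164-14229391, plus strand: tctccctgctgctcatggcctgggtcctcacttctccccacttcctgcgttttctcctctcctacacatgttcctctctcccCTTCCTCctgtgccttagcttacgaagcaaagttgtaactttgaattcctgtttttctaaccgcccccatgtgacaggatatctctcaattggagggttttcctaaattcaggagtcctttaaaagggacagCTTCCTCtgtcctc

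The C/EBP letters occurred in the windows of Clec4e, from -66 to -59 relative to the start, and Clec12a, as TTGCGCAA from -140 to -133, and in 9.56% of all 32851 promoter windows of 250 bases. The PU.1 letters occurred in the windows of Clec4d, Clec5a, Clec12a and Mrc1, with 2 matches each in Clec5a and Mrc1, and in 10.6% of all windows. The AP-1 letters occurred in the window of Clec12a alone among the 7, and in 6.75% of all windows. A search for the interferon-stimulated response element, as 2 runs of GAAA with any 2 bases between them, matched the window of Clec2d, and 2.98% of all windows. No match overlapped another of a different motif. The Clec12a window is not shown because GENCODE annotates exonic sequence across it. Matches to PU.1 letters thus stood upstream of expressed members and of Mrc1, which was nearly silent. The windows of Clec7a and Clec2d, also nearly silent, and of the expressed Clec4e held no such match. Spi1, which encodes PU.1, averaged 184.4 ± 5.24 CPM for CAR-Ms against 321.8 ± 15.5 for CAR-Trem2-Ms, and Cebpb, a C/EBP factor of myeloid cells, averaged 43.6 ± 1.13 against 319.0 ± 15.5 CPM (SD, n = 3). Letter matches are descriptions, and binding was not measured.

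Among the activating receptors, Clec4e changed most. Clec4e encodes Mincle, a receptor for mycobacterial glycolipid and for a protein released by dead cells, which signals through Fcer1g. CAR-Ms replicates 1, 2 and 3 gave 22.7, 22.2 and 24.1 CPM, and CAR-Trem2-Ms replicates gave 125.2, 124.9 and 122.4 CPM. Every CAR-Trem2-Ms library was more than 5 times above every CAR-Ms library, and the 3 replicates of each group lay close together. The log2 change was 2.43 ± 0.06 (SE; edgeR, Benjamini-Hochberg adjusted p = 8.6e-24), and 3.3% of tested genes had a larger log2 fold change. The counts behind it are 336 to 368 reads per CAR-Ms library and 1175 to 1498 per CAR-Trem2-Ms library.

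Clec4d, which encodes MCL, a partner of Mincle in the same receptor complex, read 22.2, 23.6 and 22.3 CPM in CAR-Ms. In CAR-Trem2-Ms it read 49.6, 48.8 and 42.7 CPM. The groups did not overlap, and replicate 3 was the lowest of the CAR-Trem2-Ms. The log2 change was 1.05 ± 0.09 (SE; edgeR, adjusted p = 9.9e-12), and 0.88 with an offset for GC and length. In CAR-Ms the genes gave almost equal CPM, and in CAR-Trem2-Ms Clec4e stood well above Clec4d. CPM takes no account of gene length, so it does not compare the levels of the 2 genes. Per length, in TPM, Clec4d averaged 36.4 and Clec4e 17.0 in CAR-Ms, against 48.3 and 56.6 in CAR-Trem2-Ms.

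Clec5a encodes MDL-1, a receptor that signals through DAP12, the adaptor that Trem2 also uses. It had the most reads of the 9 in every library. CAR-Ms gave 96.4, 95.6 and 104.1 CPM, and CAR-Trem2-Ms gave 170.5, 161.7 and 178.0 CPM. All 3 CAR-Trem2-Ms libraries were higher, by a log2 change of 0.79 ± 0.05 (SE; edgeR, adjusted p = 3.2e-15), the smallest change of the 5 with TMM factors. With an offset for GC and length Clec5a stood at 1.00, and Clec4d, at 0.88, had the smallest change. On the deposited TPM scale, which divides by gene length and rescales each library to the same total, the groups of Clec5a overlapped, at 63.5, 69.1 and 74.6 TPM against 67.4, 68.2 and 78.3 TPM. There its log2 change was 0.04 (limma on log2(TPM + 1), adjusted p = 0.616), a scale on which the median of all genes was -0.63.

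Clec12a encodes the inhibitory receptor MICL, which carries its own inhibitory tyrosine motif and recognises uric acid crystals. CAR-Ms gave 20.4, 20.3 and 22 CPM, and CAR-Trem2-Ms gave 44.4, 35.1 and 46.1 CPM. The groups did not overlap, although CAR-Trem2-Ms replicate 2, the library with the fewest reads, sat below the other two. The log2 change was 1.01 ± 0.10 (SE; edgeR, adjusted p = 3.9e-10). On log2(TPM + 1) it was 0.33 and not called (limma, adjusted p = 0.0658), and the TPM ranges touched, at 13.9 to 15.2 in CAR-Ms, against 15.02 to 23.4 in CAR-Trem2-Ms.

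Clec10a encodes MGL1, a macrophage galactose-type lectin that is used as a marker of alternative activation. CAR-Ms gave 1.96, 2.59 and 1.78 CPM, from 27 to 43 reads per library, and CAR-Trem2-Ms gave 12.8, 14.2 and 12.2 CPM, from 134 to 153 reads. It was low in CAR-Ms and clearly detected in each CAR-Trem2-Ms library. The log2 change of 2.62 ± 0.21 (SE; edgeR, adjusted p = 4.3e-12) was the highest of the 5 by estimate, with the widest error, although Clec4e ranked above it on log2(TPM + 1) and with an offset for GC and length. On log2(TPM + 0.1) Clec10a stood at 1.74 and Clec4e at 1.73. Mgl2, the close paralog of Clec10a next to it on chromosome 11, had 1 read in CAR-Ms, against 0 in CAR-Trem2-Ms. Reads shared by near-identical stretches could be assigned to either gene. In all 5 receptors the CAR-Trem2-Ms libraries lay above the CAR-Ms libraries without overlap in CPM, which held for 41.1% of tested genes.

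**Figure D1:**
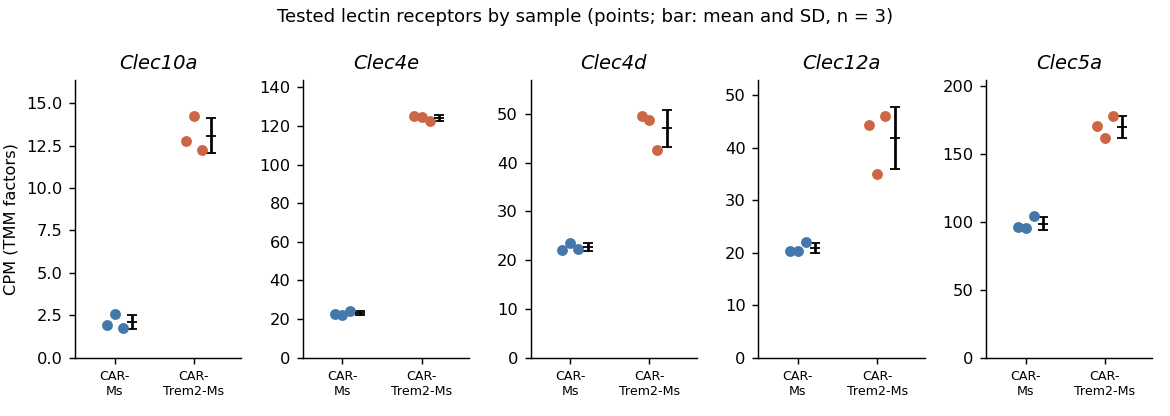
Each panel plots 1 tested receptor, with CPM (TMM factors) on the vertical axis from 0, the 3 libraries of each group as points and the mean with its SD (n = 3) as a bar. The groups do not overlap in any panel on this scale, and CAR-Trem2-Ms replicate 2 is the low point of Clec12a at 35.1 CPM; on the TPM scale the groups of Clec5a and Clec12a overlap.

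The receptors with few reads include the best known macrophage lectins. Mrc1 had 8, 0 and 4 reads in CAR-Ms, against 0, 5 and 2 in CAR-Trem2-Ms. Clec7a, Dectin-1, the receptor for fungal beta-glucan, had 2, 0 and 0 reads in CAR-Ms, against 0, 0 and 9 in CAR-Trem2-Ms, so its reads in that group came from replicate 3 alone. GENCODE lists Clec7a as a polymorphic pseudogene on this assembly. Clec4n, Dectin-2, a receptor for fungal mannan that signals through Fcer1g, had 5, 1 and 0 reads in CAR-Ms, against 3, 1 and 3 in CAR-Trem2-Ms. Clec2d, a ligand of an inhibitory receptor of NK cells, had 1, 0 and 4 reads against 6, 11 and 1. The groups overlapped for each of these 4 genes. Where a library gave 0 reads, 3 reads remain possible, or 0.18 to 0.32 CPM by library, a limit that covers counting error only. When every gene with a read was tested, where 58.1% of 16584 genes were called, edgeR called 0 of the 4, with adjusted p = 0.0708 for Clec2d, 0.160 for Clec7a, 0.694 for Clec4n and 0.852 for Mrc1. A difference in these 4 was thus not detectable at this depth.

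**Figure D2:**
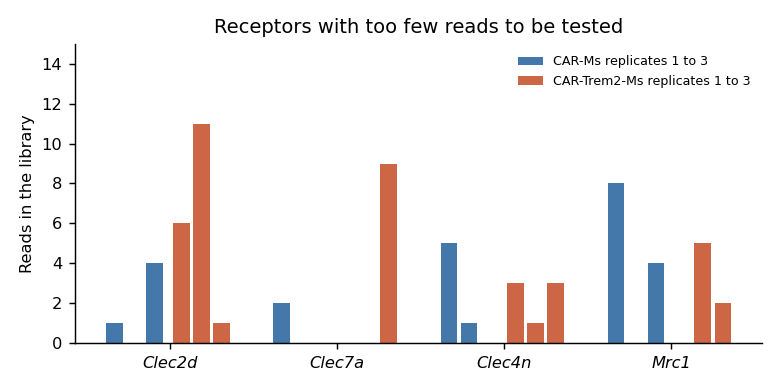
Bars give the reads per library, from 0, for the 4 receptors that were not tested, with CAR-Ms replicates 1 to 3 in blue and CAR-Trem2-Ms replicates 1 to 3 in orange. The highest bar is Clec2d in CAR-Trem2-Ms replicate 2 with 11 reads, and the single bar of Clec7a in CAR-Trem2-Ms is the 9 reads of replicate 3.

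Levels of different genes were compared per length, in TPM. In CAR-Ms the order was Clec5a at 69.1 ± 5.51 TPM, Clec4d at 36.4 ± 1.05, Clec4e at 17.0 ± 0.38, Clec12a at 14.7 ± 0.69 and Clec10a at 2.70 ± 0.52 (SD, n = 3). The ranges of neighbours in that order did not overlap. In CAR-Trem2-Ms Clec5a again came first at 71.3 ± 6.10 TPM, followed by Clec4e at 56.6 ± 2.53, Clec4d at 48.3 ± 4.73, Clec12a at 19.1 ± 4.22 and Clec10a at 9.15 ± 0.95. Clec4e thus moved from the third place to the second, without overlap with Clec4d. That last order depended on the gene length used: with counts divided by the summed exon length in GENCODE, Clec4d stood at 70.6 and Clec4e at 60.1 in CAR-Trem2-Ms on the same scale. The 4 receptors with few reads averaged at most 0.62 TPM in either group, and their ranges overlapped, except that Clec4n lay above Mrc1 in CAR-Trem2-Ms.

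Within a library, the share of each receptor in the summed TPM of the 9 is free of the scale between libraries. The share of Clec5a was 46.9, 49.0 and 51.3% in CAR-Ms, against 33.6, 33 and 37.1% in CAR-Trem2-Ms. The share of Clec4e was 12.4, 12.4 and 11.6% in CAR-Ms, against 27.2, 28.8 and 26.4% in CAR-Trem2-Ms. In CAR-Trem2-Ms the share of Clec5a was lower and that of Clec4e higher, with no overlap between the groups for either receptor. The summed TPM itself was 135.4 to 145.3 in CAR-Ms, against 200.4 to 211.1 in CAR-Trem2-Ms. The level of Clec5a was not lower, at 69.1 against 71.3 TPM. Clec10a went from 1.9 ± 0.42% to 4.5 ± 0.53%, while Clec4d, at 25.9 ± 0.96% and 23.5 ± 2.69%, and Clec12a, at 10.5 ± 0.61% and 9.3 ± 1.92% (SD, n = 3 each), had overlapping ranges. The receptors that were not tested made up at most 1.06% of the sum in any library.

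**Figure D3:**
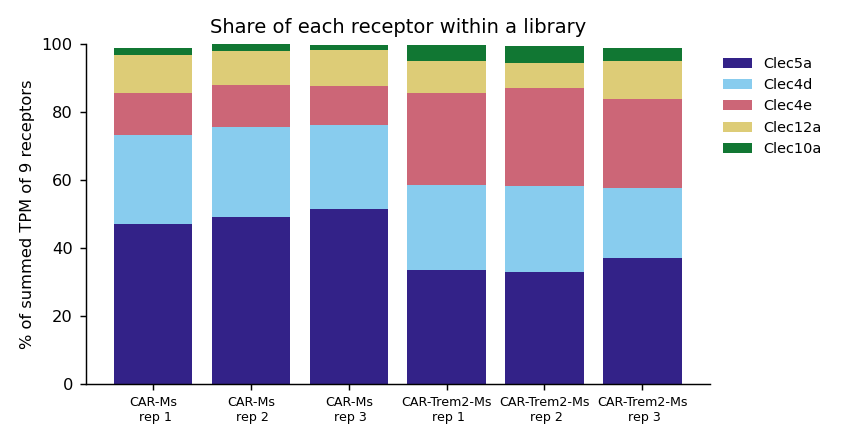
Stacked bars show, for each of the 6 libraries, the percentage of the summed TPM of the 9 receptors that each of the 5 tested receptors takes, from 0 to 100%. Clec5a fills 46.9 to 51.3% of the CAR-Ms bars and 33 to 37.1% of the CAR-Trem2-Ms bars, and Clec4e 11.6 to 12.4% and 26.4 to 28.8%.

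Ratios of reads between 2 receptors in the same library needed no scaling. Clec4e over Clec4d, genes 6.5 kb apart, was 1.02, 0.94 and 1.08 in CAR-Ms, against 2.53, 2.56 and 2.87 in CAR-Trem2-Ms. Clec4e over Clec5a was 0.24, 0.23 and 0.23 in CAR-Ms, against 0.73, 0.77 and 0.69 in CAR-Trem2-Ms. Of the 10 pairs among the 5 receptors, 7 had ratios that did not overlap between the groups, and so did 79.0% of all 63129466 pairs among the 11237 tested genes with reads in every library, so this count is near that of any pair. The pairs that overlapped were Clec10a with Clec4e, Clec4d with Clec12a, and Clec4d with Clec5a, whose log2 ratios differed by 0.21, 0.06 and 0.26 between the groups. With 3 libraries against 3, an exact two-sided permutation test cannot give a p under 0.1, which the 7 pairs reached (Benjamini-Hochberg adjusted p = 0.143 over the 10 pairs). By size, the changes of Clec10a and Clec4e were large and those of Clec4d, Clec12a and Clec5a smaller, a division read from the same values. Overlap of the ratios does not draw that line, since Clec12a over Clec5a also did not overlap, with a log2 difference of 0.21.

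The size of each rise depended on how libraries were scaled. Over all tested genes the median log2 fold change was 0.03 under TMM, 0.26 under upper quartile factors, -0.10 when counts were scaled by library total, and -0.63 for log2(TPM + 1). Of the called genes, 50.5% were higher with TMM factors, 61.3% with upper quartile factors and 21.4% on log2(TPM + 1). A change of count-based factor shifts all genes almost equally, so distances from the median must stay nearly the same across those factors. Relative to those medians, Clec4e stood 2.40 above with each count-based factor and 2.30 above on log2(TPM + 1). Clec4d stood 1.02 above on all 4 scales. Clec5a stood 0.76 above with each count-based factor and 0.68 above on log2(TPM + 1). Clec12a stood 0.98 and 0.96 above, and Clec10a moved most, from 2.59 to 2.09 above. That move depended on the pseudocount: on log2(TPM + 0.1) Clec10a stood 2.43 above the median and Clec4e 2.42. On log2(TPM + 1) itself, where 81.6% of 10824 genes were called, 17.5% as higher and 64.2% as lower, limma called 3 of the 5 receptors: Clec4e at 1.67, Clec10a at 1.46 and Clec4d at 0.39.

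**Figure D4:**
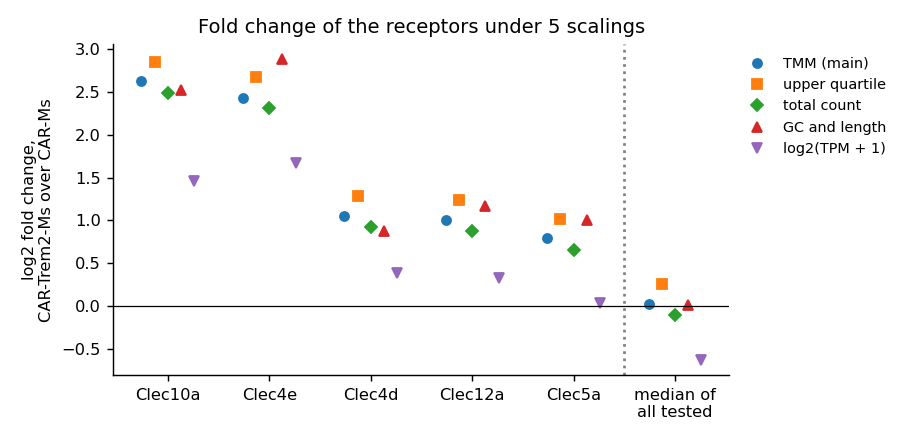
The vertical axis is the log2 fold change of CAR-Trem2-Ms over CAR-Ms, and each marker is 1 of 5 scalings for the 5 tested receptors and, at the right, for the median of all tested genes. All receptor markers lie above 0 and above the median marker of the same scaling, with Clec5a on log2(TPM + 1) at 0.04, which was not called.

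The 2 receptor clusters of chromosome 6 hold expressed and silent members side by side. Clec4n, Clec4d and Clec4e span 60.0 kb (Clec4n from 123229843 to 123247021, Clec4d from 123262111 to 123275265, Clec4e from 123281789 to 123289870). Within 200 kb on either side the table holds 8 genes, receptors included, of which Clec4d and Clec4e alone were tested. Clec4a2, an inhibitory lectin receptor of the same cluster, had 33 reads in CAR-Ms, against 17 in CAR-Trem2-Ms, too few to be tested, and Clec4b1 had 0 and 1. Clec2d, Clec12a and Clec7a lie within 292.2 kb further along the chromosome (Clec2d from 129180615 to 129186534, Clec12a from 129342691 to 129365303, Clec7a from 129461591 to 129472779). Of 22 genes in the table within 200 kb, these receptors included, 18 had at most 10 reads in every library, and 3 were tested. Those 3 were Clec12a, Cd69, an activation marker, at 0.75 and 0.99 CPM with a log2 change of 0.40 that was not called, and Gabarapl1, an autophagy gene, which fell by 0.58 on the log2 scale. Leaving the receptors themselves out, 0 of 5 neighbours were tested around Clec4n, Clec4d and Clec4e, 2 of 19 around Clec2d, Clec12a and Clec7a, 5 of 12 around Clec5a, 14 of 20 around Clec10a and 3 of 4 around Mrc1. These shares were not tested against each other. Clec5a lies apart on chromosome 6, from 40574894 to 40585821, Clec10a on chromosome 11 from 70156197 to 70170834 and Mrc1 on chromosome 2 from 14229392 to 14332057.

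A list of 67 further genes with a C-type lectin domain was mostly silent: 23 had no read in any library, 53 had fewer than 10 in every library, and 10 were tested. Of these, 3 were higher, 3 were lower and 4 did not pass, with a median log2 fold change of -0.06, and 60% were called beside 81.1% of all tested genes. Colec12, a scavenger receptor with a collagen-like stalk, had the highest CPM of these genes in CAR-Ms and fell by 1.13 on the log2 scale, to 89.3 ± 0.73 CPM (SD, n = 3), or by 0.42 with an offset for GC and length. Cd72, an inhibitory receptor best known from B cells, rose by 0.58 to 116.9 ± 2.996 CPM, but stood at -0.10 on log2(TPM + 1) and was not called there (limma, adjusted p = 0.108). Cd209c, of the DC-SIGN family, fell by 0.84 to 4.03 ± 1.07 CPM. Layn, a hyaluronan receptor, fell by 0.27, a call lost with DESeq2 (adjusted p = 0.0524), upper quartile factors, the replicate block and the removal of any of 4 libraries, CAR-Ms replicates 1 and 2 and CAR-Trem2-Ms replicates 1 and 3. On log2(TPM + 1), 0 of these genes were higher in limma and 5 lower, beside 17.5% and 64.2% of all genes.

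Fcer1g and Card9 rose and Syk fell. Fcer1g, the adaptor of Clec4e, Clec4d and Clec4n, averaged 30.1 ± 1.36 CPM for CAR-Ms against 71.7 ± 3.33 for CAR-Trem2-Ms (SD, n = 3), a rise of 1.25 ± 0.07 (log2, SE; edgeR, adjusted p = 1.9e-15). That rise was 0.51 on log2(TPM + 1) and 0.49 with an offset for GC and length. Tyrobp, the adaptor of Clec5a and Trem2, was higher by 0.73 with TMM factors, but with the offset for GC and length it was lower, at -0.28 (edgeR, adjusted p = 1.3e-07). On log2(TPM + 1), where the median of all genes was -0.63, Tyrobp stood at -0.02 and was not called (limma, adjusted p = 0.394). Syk, at 119.3 ± 5.52 CPM for CAR-Ms against 69.5 ± 3.68 for CAR-Trem2-Ms, fell by 0.78 in log2 units (edgeR, adjusted p = 1.4e-13). Card9 went the other way, from 28.1 ± 0.81 to 156.3 ± 5.40 CPM, whereas its partners Bcl10 and Malt1, named after their values were seen, fell by 0.75 and 0.27 on the log2 scale.

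Across the list of 44 signalling genes, all tested, 22 rose, 20 fell and 2 did not pass, and 95.5% were called beside 81.1% of all tested genes. The median log2 fold change was 0.15. Beside Card9 and Fcer1g, rises were called for Fgr, a Src-family kinase, from 4.97 ± 0.67 to 11.9 ± 2.22 CPM, and for Ubash3b, a phosphatase that restrains Syk signalling, which rose by 1.29 and was not called on log2(TPM + 1) (limma, adjusted p = 0.404). The 4 largest falls were those of Vav3, an exchange factor for Rac, which fell by 1.85 on the log2 scale, Nfatc3, a calcium-dependent transcription factor, which fell by 1.85, Pik3r1, the regulatory subunit of PI3 kinase, which fell by 1.70, and Traf6, a ubiquitin ligase on the way to NF-kB, which fell by 1.47. The other Vav and Nfat genes of the list were called higher with TMM factors, so Vav3 and Nfatc3 do not stand for their families. In limma on log2(TPM + 1), 8 of the list were higher and 29 lower, beside 17.5% higher and 64.2% lower of all genes tested there. With an offset for GC and length, Pik3r1 fell by 1.04 and Traf6 by 0.88.

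Genes treated as effectors of these receptors were also listed, with earlier results of these data known. The list joins genes that such receptors can induce with caspase and inflammasome genes such as Casp1, Casp8 and Pycard. Of 26, 19 were tested, with 14 called higher, 2 called lower, 3 without a call and a median log2 fold change of 1.20. The share called was 84.2%, near the 81.1% of all tested genes, of which 40.9% were higher and 40.1% lower. The chemokines led, with Ccl4 up by 5.32 to 224.8 ± 5.19 CPM (4.67 with an offset for GC and length), Cxcl2 up by 3.46 to 142.0 ± 3.94 CPM and Ccl3 up by 2.13 to 360.6 ± 15.1 CPM (SD, n = 3). Egr3, an early growth response factor, rose by 1.88, while its relative Egr1 fell by 0.94, and Il1rn, which blocks the receptor of interleukin 1, fell by 1.91. Il12b had no read, and Il6, Il10, Csf2, Cxcl1, Il12a and Pycard also had too few to be tested. In limma on log2(TPM + 1), 11 of the list were higher and 4 lower, beside 17.5% and 64.2% of all genes. Many other receptors induce genes of this list, and the list does not separate their inputs.

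**Figure D5:**
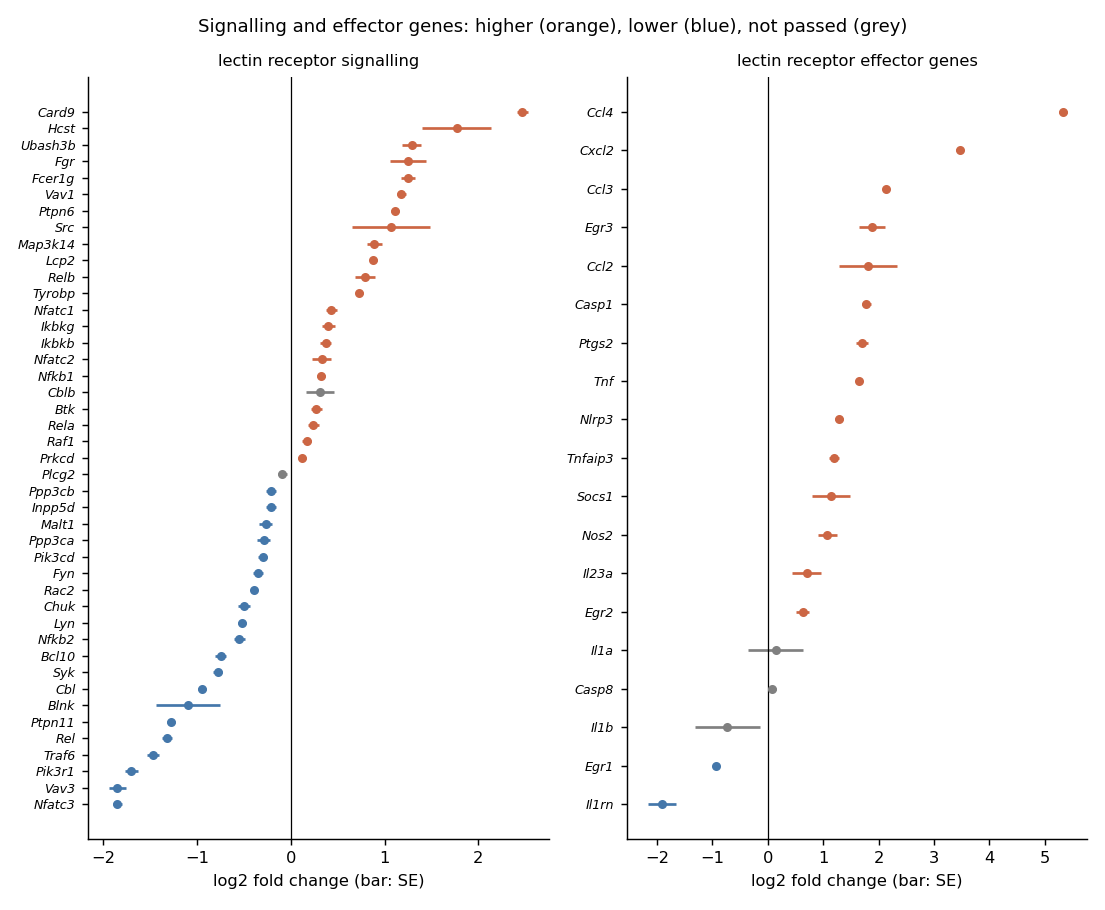
Points give the log2 fold change of CAR-Trem2-Ms over CAR-Ms on the horizontal axis, with its SE as a bar, for signalling genes at the left and the 19 tested effector genes at the right, with called rises in orange, called falls in blue and others in grey, on the TMM scale. Card9 at 2.47 and Ccl4 at 5.32 are the topmost points, and Tyrobp at 0.73 is a rise that turns to -0.28 with an offset for GC and length.

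Several of the receptors are also made by neutrophils, monocytes and dendritic cells. Of 12 neutrophil markers, 6 were tested, 0 rose and 5 fell, and their summed level was 20.0 to 38.0 CPM in CAR-Ms, against 3.926 to 8.501 CPM in CAR-Trem2-Ms, with Ly6g at no more than 1 read in a library. Of 7 monocyte markers, 3 were tested and 3 rose, led by Spn, also made by macrophages, with sums of 14.4 to 16.4 and 56.0 to 58.4 CPM, and Ly6c2 had at most 5 reads. Of 10 dendritic cell markers, 1 was tested, Xcr1, and did not pass, with sums of 2.83 to 3.17 and 3.41 to 5.43 CPM. Batf3 and Clec9a had no more than 1 read in a library. Flt3, with no more than 6 reads, averaged 0.26 CPM in CAR-Ms, against 0.04 in CAR-Trem2-Ms. Zbtb46, with no more than 15 reads, averaged 0.17 CPM in CAR-Ms, against 0.84 in CAR-Trem2-Ms. T and NK cell markers summed to 2.63 to 3.14 and 7.34 to 13.8 CPM (3 of 5 tested rose), B cell markers to 83.4 to 110.7 and 116.5 to 120.8 CPM (1 of 7 rose, Ighm, and 5 fell), fibroblast markers to 2.47 to 3.03 and 5.18 to 6.16 CPM (1 of 2 rose) and keratinocyte and endothelial markers to 4.46 to 6.68 and 2.01 to 3.29 CPM (2 of 3 fell). The part of these marker genes in the rise of the receptors was not tested.

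Among 10189 tested genes averaging 50 reads or more in whichever group was higher, those whose profile over the 6 libraries lay closest to that of Clec10a were Gpr179, C130026I21Rik and Lsp1, at Euclidean distances of 0.17, 0.211 and 0.257 between log2 CPM profiles centred on their own means. Their log2 fold changes were 2.63, 2.75 and 2.71. With 2 groups of 3 libraries, such likeness reflects mostly the size of the difference between the groups. No receptor was called lower, so no profile was matched to a fall.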

How the data were processed

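Macrophage RNA from 3 CAR-Ms and 3 CAR-Trem2-Ms samples was sequenced after Trizol extraction and a SMARTER mRNA-Seq library kit, per the labels. The authors deposited 1 table that holds, per the file headers, raw read counts and TPM values per gene and sample. The build mm10 and the tools HISAT2, StringTie 1.3.1, Bowtie2 2.2.8 and fastp 0.18.0 are listed, with no role, per the submitters' processing notes. The counter, its strand setting and its annotation: not given in the sources used here.

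Counts of all genes were tested with edgeR 4.0.16 (R 4.3.3; quasi-likelihood test, TMM factors, filterByExpr, Benjamini-Hochberg over 11402 genes, threshold 0.05), after the code was tested on simulated data. SE is the fold change (log2) over the root of F. TPM was tested with limma 3.58.1 on log2(TPM + 1) where 3 samples or more reached a TPM of 1. Replicate pairs differed by more than sampling noise (chi-square per degree of freedom of 2.19 to 3.34 for genes with 20 reads or more summed over a pair), and each library was counted once. Such values do not tell separate cultures from separate preparations of the same culture. The receptors and gene lists were chosen with earlier results of these data known. Named genes were the 9 receptors, Trem2, Fcer1g, Tyrobp, Syk, Card9 and, from each list, up to 4 rises and 4 falls by size among called genes with at least 50 reads and no overlap; 1 gene that this rule names is counted but not reported here. Alternatives were other factors, filters, thresholds and tools (DESeq2 1.42.0, limma-voom), TPM with pseudocounts of 1 and 0.1, removal of mitochondrial genes, a replicate block, leaving out each library and, added after seeing the data, an offset for GC content and transcript length from GENCODE (splines; 11382 of 11402 genes had a value).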

Additional observations from a re-analysis of the deposited data

How the results depend on the processing

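The 5 calls among the receptors held under RLE, upper quartile and total-count factors, both other filters, DESeq2, limma-voom, removal of mitochondrial genes, the correction for GC content and length, an adjusted p under 0.01 and the removal of each library in turn. On log2(TPM + 1) and log2(TPM + 0.1) the count of higher receptors was 3, with Clec5a and Clec12a not called. Of 90 alternative values of the 5 log2 fold changes, 86 stayed on their side of the threshold, 4 lost the call and 0 changed sign. Both TPM scales also gave 8 higher signalling genes, 4 lower effector genes, and 0 higher and 5 lower of the other lectin genes. With no filter, 6 of the other lectin genes were higher, beside 4721 of 16584 genes in all. With a log2 fold change of at least 1, 9 of 44 signalling genes were higher and 7 lower, 1 effector gene was lower and 1 other lectin gene was lower. At that cut 3765 of 11402 tested genes were called, 2136 (18.7%) as higher and 1629 as lower. Fcer1g stayed called at 0.51 on both TPM scales and 0.49 with the GC and length correction. The log2 change of Tyrobp was -0.02 on both TPM scales and -0.28 after the GC and length correction, and that of Cd72 was -0.10 on both TPM scales; the cause was not tested. The replicate block called 9188 genes in all and 5 receptors. Same-numbered libraries correlated at 0.02, -0.03 and 0.09 in their deviations from the group means. Replicates 1 and 2 did not correlate best with their own numbers, and replicate 3 did. Deviations from a mean of 3 libraries hold much counting noise, so these values cannot settle whether same-numbered libraries share a culture or batch. The labels do not say. Depth limits Mrc1, Clec7a, Clec4n and Clec2d, for which no direction can be given.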
